A study of Homo sapiens with 12 samples.

Results

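The comparison described here sets AC16 cells that had spent 5 days without interferon after a single pulse against AC16 cells harvested at the end of that pulse. Its members are 6 of the 12 libraries in the series, 3 labelled as recovery and 3 labelled as acute, compared over all 18119 genes that passed the filter on low counts. AC16 is an established human cell line derived from ventricular tissue, which the labels describe as cardiomyocyte with a WT genotype. Acute cells received recombinant human interferon alpha-2a at 1000 U per mL for 24 h. Recovery cells received the same pulse and then 5 days of culture without the cytokine, which the labels place at day 6. The remaining groups serve as reference here: 3 vehicle libraries labelled as 24 h of PBS, and 3 repeat libraries from cells given a pulse, 4 days without cytokine and a second 24 h pulse. The question was which transcripts raised or lowered by the pulse returned to the vehicle level, and which did not. Replicates are described by the submitters as independent biological replicates of 1 cell line, so p-values measure the spread between cultures of that line.

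Interferon alpha binds the receptor subunits IFNAR1 and IFNAR2, and the kinases JAK1 and TYK2 then phosphorylate STAT proteins. With IRF9 these form a complex that binds the interferon-stimulated response element in the promoters of interferon-stimulated genes. The products include direct antiviral proteins, parts of the antigen presentation machinery, the signalling proteins themselves and inhibitors such as USP18 and SOCS1 that damp the response.

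Acute libraries held 39.9 to 56.5 M counts and recovery libraries 44.4 to 48.4 M. On the first principal component, which held 40% of the variance, the acute libraries lay at 27.6 to 30.7 and the recovery libraries at -26.8 to -25.7, near the vehicle libraries at -36.5 to -32.1. Acute replicate 2 stood apart from the other acute libraries on the second component, which held 8.05% of the variance. The cardiomyocyte label was checked against 21 markers fixed for that purpose: 7 of them (MYH6, MYH7, MYL2, MYL7, NKX2-5, NPPA and TBX5) had a count of 0 in all 6 libraries. TNNT2, cardiac troponin T, had 0 to 1 counts in the acute and 2 to 3 in the recovery libraries. ACTN2 had 72 to 112 and 117 to 153, ACTC1 25 to 28 and 8 to 16, and GATA4 563 to 737 and 718 to 824. Most sarcomere markers were thus nearly absent, and the cells are called by the name of the line. The summed level of the 11 fibroblast markers was 5970 to 6170 CPM (counts per 1000000 counts of the library) in acute, 6600 to 6680 in recovery, 7650 to 7920 in vehicle and 5240 to 5490 in repeat libraries. The other marker sums were 17.7 to 19.2 against 21.3 to 21.8 CPM for cardiomyocyte, 13.3 to 14.1 against 12.8 to 13.8 for endothelial, 630.0 to 637 against 596 to 616 for smooth muscle and 224 to 238 against 115 to 125 for immune markers, the last mostly CD68, with CD3E, MS4A1 and NKG7 at 0. Whether shifts in such marker levels had a part in any result was not tested. In bulk RNA, fewer cells with a transcript and less transcript per cell cannot be told apart.

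Recovery differs from acute in time in culture as well as in time without interferon, and these cannot be told apart from the 6 libraries alone. The repeat libraries bear on this directly, since they were harvested about as late as the recovery libraries, on a day labelled 7, but straight after a pulse. Their values are therefore given beside those of the acute and recovery libraries for some of the genes named below, but not for all.

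Across the transcriptome, 7448 of 18119 genes (41.1%) differed between recovery and acute at an adjusted p under 0.05 in edgeR's quasi-likelihood test with Benjamini-Hochberg adjustment, the rule by which a gene is said to be called, to rise or to fall. Of these, 3752 (20.7%) were lower and 3696 (20.4%) higher in recovery. The large changes leaned one way: 334 genes (1.84%) were called and at least 2-fold lower, and 125 (0.69%) called and at least 2-fold higher. CPM values of the acute and recovery libraries did not overlap for 9157 genes (50.5%). The split of calls, 49.6% higher, moved under some alternatives: limma on log2(TPM + 1), which changes unit, tool and scaling together, called 1514 genes higher and 2322 lower (39.5% higher), and upper quartile scaling of the counts called 4329 higher and 3148 lower (57.9% higher). A gene length offset in edgeR called 1868 higher and 2045 lower (47.7% higher). Of the 3 biotypes with the most genes tested, protein-coding genes were called in 49.7% of 13673 cases, long non-coding RNAs in 16.1% of 2335 and processed pseudogenes in 9.58% of 1200.

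**Figure D1:**
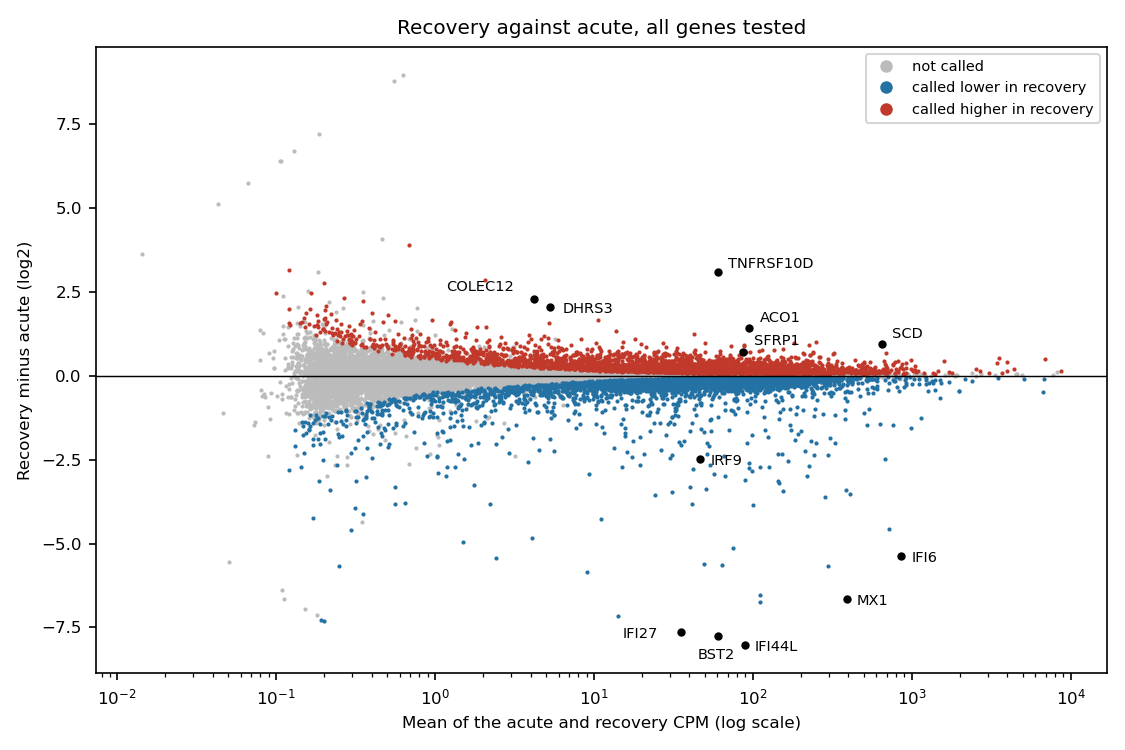
Each of the 18119 genes tested is a point, with the mean of the acute and recovery CPM on a log axis and the log2 difference recovery minus acute on the vertical axis. Blue and red points were called lower and higher in recovery. The labelled genes run from IFI44L at -8.02 to TNFRSF10D at 3.1, and among called genes the lower side reaches further from 0 than the upper side. Grey points more than 5 from 0 all have a mean under 1 CPM.

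To count resetting, genes were first sorted by the pulse. In acute against vehicle, 4049 genes (22.3%) were called higher and 3889 (21.5%) lower, and 386 genes were raised and 202 lowered at least 2-fold. Of the 386 raised genes, 314 (81.3%) were called lower in recovery than in acute, against 20.7% of all genes, and 72 were not called. Of the 202 lowered genes, 145 (71.8%) were called higher in recovery, against 20.4% of all genes, and 57 were not called. Both steps use the same acute libraries, so these shares describe the reset and do not test it. In recovery against vehicle, 549 genes (3.03%) were called higher and 527 (2.91%) lower, and those calls split the 314 raised genes into 221 no longer called against vehicle, 87 still higher and 6 lower. The 145 lowered genes split into 113 no longer called and 32 still lower. Vehicle was labelled 24 h. In every comparison of recovery with vehicle, time in culture and the after-effect of the pulse therefore cannot be told apart.

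A list drawn from libraries outside this comparison was also counted. Repeat against vehicle, which uses no acute or recovery library, put 425 genes at least 2-fold up and 250 at least 2-fold down. Of the 425 genes, 320 (75.3%) were called lower in recovery than in acute, with a median difference of -1.2 on the log2 scale, 103 were not called and 2, ACTN2 and PLCG2, were called higher. Of the 250 genes, 142 (56.8%) were called higher, with a median difference of 0.72, 106 were not called and 2, IGFBP5 and NPPB, were called lower. The background shares are again 20.7% lower and 20.4% higher over all genes. Every count of list members below stands beside these shares. For recovery against vehicle the shares are 3.03% higher and 2.91% lower.

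Restricting to genes with a mean of at least 5 CPM in acute or vehicle removed every gene that was not called back. All 182 such raised genes were called lower in recovery and all 50 such lowered genes were called higher. Among the 182 raised genes, 101 were no longer called against vehicle, 76 were still higher and 5 (APOL2, C1R, C1S, IFI16 and IL32) were called below vehicle. Among the 50 lowered genes, 25 were no longer called against vehicle and 25 were still lower. These counts against vehicle moved with the processing: on log2(TPM + 1), log2(TPM + 0.1) and with a gene length offset, 36, 38 and 41 raised and 8, 9 and 13 lowered genes were still called. Over all genes, the calls of recovery against vehicle (549 higher and 527 lower) became 118, 125 and 178 in those settings, 707 without recovery replicate 2, 716 without recovery replicate 3 and 624 without vehicle replicate 1. The 95% interval of recovery against vehicle lay within 1.5-fold for 137 of the 182 and 36 of the 50. Under 5 CPM, 132 of 204 raised and 95 of 152 lowered genes were called back.

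Among genes of at least 5 CPM, the median share of the change left was larger for lowered than for raised genes. For each gene of at least 5 CPM, the CPM of the recovery library in the middle of the 3 was expressed as the percent of the acute minus vehicle difference still present. Here and below, a share left is a distance from vehicle and includes any change with time in culture. The median over the 182 raised genes was 3.18% (quartiles 0.132% and 10.0%), and over the 50 lowered genes 30.2% (13.3% and 44%). As a share of the log2 change the medians were 8.29% and 21.8%. Under 5 CPM the medians of 204 raised and 152 lowered genes were 14.5% and 37.8% of the CPM change but 27.4% and 25.2% of the log2 change, so on the log2 scale the order did not hold there. Genes of like pulse size, changed by 1 to 2 on the log2 scale, had medians of 5.99% over 105 raised genes, 44 of them still called, and 30.7% over 47 lowered genes, 23 of them still called, or 10.3% and 28.0% of the log2 change. At least 30% was left for 8 of the 182 raised and 25 of the 50 lowered genes. No test of this difference between the lists was made, because the genes are not replicates and both lists rest on the same libraries.

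**Figure D2:**
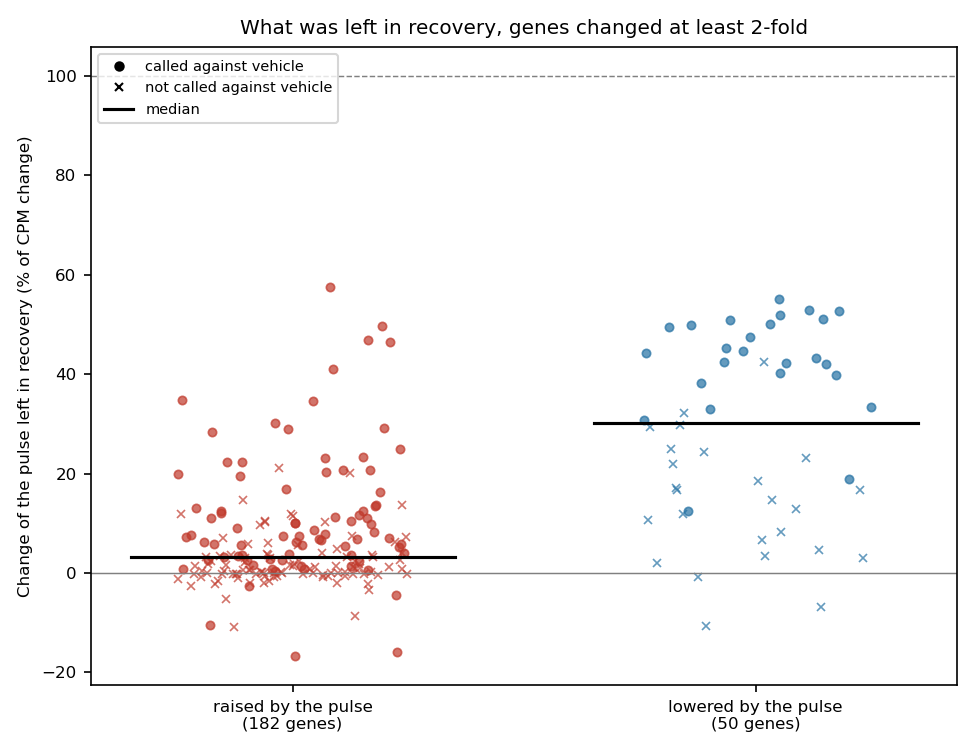
Each point is a gene with at least 5 CPM that the pulse changed at least 2-fold, placed by the percent of the CPM change left in the middle recovery library; 0% is the vehicle mean and the dashed line at 100% the acute mean. Filled circles were called in recovery against vehicle, crosses were not, and bars are medians, 3.18% for 182 raised and 30.2% for 50 lowered genes. The percent left includes any change with time in culture.

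Antiviral effector genes were among those that fell furthest, beside genes outside that list such as LGALS9 and USP18. All 39 antiviral effectors tested were called lower in recovery, all at least 2-fold (1.84% of all genes), with a median of -2.92 on the log2 scale and a range from -8.02 to -1.04, beside a median of 0.0 over all genes. The same 39 genes had all been raised by the pulse, and in recovery 21 were still called higher than vehicle and 1 lower. This list was chosen with earlier results of these data known, so its counts are a description and not a test. The following promoter stretches, from RefSeq on GRCh38.p14, are shown because these 5 genes span the steepest falls and the ISG15 and TAP1 systems described later; capitals mark each match to the core of the interferon-stimulated response element, GAAANNGAA, on either strand, where matches that share bases run together. Each stretch ends at the base before the most upstream RefSeq start with a window. The gene bounds printed below come from another annotation, GENCODE, and can begin further upstream, as for IFI44L and ISG15.
IFI44L, chr1:78620278-78620447, plus strand: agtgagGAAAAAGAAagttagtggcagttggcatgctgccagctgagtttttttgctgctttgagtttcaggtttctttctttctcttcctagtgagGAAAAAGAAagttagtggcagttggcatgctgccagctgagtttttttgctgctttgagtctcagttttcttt
BST2, chr19:17405631-17405770, minus strand: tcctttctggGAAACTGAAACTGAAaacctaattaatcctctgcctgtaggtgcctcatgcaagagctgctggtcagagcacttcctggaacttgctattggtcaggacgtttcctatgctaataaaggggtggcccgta
IFI27, chr14:94110596-94110735, plus strand: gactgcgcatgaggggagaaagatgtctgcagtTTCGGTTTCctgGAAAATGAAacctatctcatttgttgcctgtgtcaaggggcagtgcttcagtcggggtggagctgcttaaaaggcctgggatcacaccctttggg
ISG15, chr1:1013357-1013496, plus strand: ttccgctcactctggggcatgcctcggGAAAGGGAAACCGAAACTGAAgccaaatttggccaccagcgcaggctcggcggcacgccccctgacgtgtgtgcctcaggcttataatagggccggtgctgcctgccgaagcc
TAP1, chr6:32853705-32853844, minus strand: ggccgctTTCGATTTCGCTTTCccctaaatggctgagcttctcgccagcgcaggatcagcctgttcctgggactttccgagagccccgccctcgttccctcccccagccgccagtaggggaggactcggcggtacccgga

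The first match lay 164 bases before the start in IFI44L, 130 in BST2, 107 in IFI27, 113 in ISG15 and 133 in TAP1. In windows from 250 bases before to 50 after each start, the motif was found in 76.7% of 43 windows of the antiviral effectors (32 of 39 genes had a window) and in 40.7% of 27 windows of the MHC class I presentation list (18 of 22 genes). It was found in 6.67% of 15898 windows of all protein-coding genes tested and in 8.11% of all 35102 windows in the table. Among protein-coding genes called under 2-fold it was in 7.32% of windows of those lower in recovery and 5.37% of those higher, and in 6.15% of windows of genes not called. A match is a run of letters and does not show that a factor bound there.

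IFI44L, an interferon-induced gene with antiviral activity (ENSG00000137959.17, GRCh38 chromosome 1, 78619902 to 78646145), had the steepest fall of the genes named by rule. Its CPM, here and below scaled by the trimmed mean of M values (TMM), was 178, 175 and 177 in the acute libraries and 0.538, 0.693 and 0.8 in the recovery libraries. Recovery values overlapped the vehicle values of 0.596, 0.407 and 0.346, and the repeat values of 178, 169 and 167 lay close to acute. The difference from acute was -8.02 ± 0.145 (SE, n = 3 and 3, adjusted p = 6.98e-35), and that from vehicle, 0.56, was not called (adjusted p = 0.157).

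BST2, which encodes tetherin, a protein that holds budding virions at the cell surface, went from 125, 114 and 123 CPM to 0.56, 0.628 and 0.492. The difference was -7.75 ± 0.225 (adjusted p = 3.32e-18). Its start lies 56 bases from that of the long non-coding RNA BISPR on the opposite strand, which fell by 3.82, and the reads of the pair may not be cleanly separated, since whether the counting used strand is not known here. IFI27, a mitochondrial interferon-induced protein, went from 72.1, 70.3 and 68.6 to 0.314, 0.281 and 0.451 CPM, overlapping the vehicle range of 0.195 to 0.385. XAF1, a pro-apoptotic interferon-induced gene, went from 142 to 150 CPM down to 3.66 to 4.63, again overlapping vehicle. IFITM1, which blocks viral entry at membranes, fell by 5.61 and LGALS9, encoding galectin-9, by 5.85, and neither was called against vehicle.

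Other antiviral genes also fell steeply but were still called above vehicle. They are set apart by that call alone, not by the size of the excess. BST2 and IFI27, not called, lay 0.41 and 0.44 above vehicle, at vehicle means of 0.404 and 0.263 CPM. Those excesses were larger than that of IFI6 below. MX1, a dynamin-like GTPase that traps viral nucleocapsids, had 783, 767 and 767 CPM in acute and 7.82, 7.19 and 8.02 in recovery. All 3 recovery values exceeded the vehicle values of 4.68, 3.05 and 2.92. The fall was -6.65 ± 0.0891 (adjusted p = 1.29e-13) and the excess over vehicle 1.08 (adjusted p = 0.00101), which amounted to 0.556% of the rise in CPM. Its neighbour MX2 had 217, 216 and 225 CPM in acute, 3.2, 1.82 and 2.15 in recovery and 0.158 to 0.508 in vehicle, an excess of 2.89 over vehicle. IFI6, an endoplasmic reticulum protein that limits flavivirus replication, had 1693, 1655 and 1667 CPM in acute and 41.7, 38.5 and 41.1 in recovery, with an excess of 0.19 over vehicle whose call (adjusted p = 0.0206) was lost under 8 of the 16 alternative settings.

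The oligoadenylate synthetases, which make the second messenger that activates RNase L, showed the most graded residue. OAS1 went from 217, 218 and 222 to 2.11, 1.99 and 2.03 CPM, with 0.181 to 0.578 in vehicle, so that the fall of 6.74 left an excess of 2.23 over vehicle (adjusted p = 3.02e-09). OAS2 went from 583 to 592 CPM down to 11 to 12.3, with 3.1 to 3.23 in vehicle, an excess of 1.86. OAS3 went from 1379 to 1396 CPM down to 56.2 to 59.5, with 37.3 to 40.6 in vehicle, an excess of 0.58. In CPM these residues were 0.736%, 1.35% and 1.44% of the rise. OASL, the family member without synthetase activity, kept much more: 203, 192 and 204 CPM in acute, 92.6, 92.2 and 101 in recovery and 46.8 to 52.3 in vehicle. Its fall was -1.07 ± 0.0422 (adjusted p = 1.61e-10), and 28.3% of the rise was left, an excess of 0.92 over vehicle (adjusted p = 7.51e-08).

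RSAD2, encoding viperin, and CMPK2, encoding a mitochondrial nucleotide kinase, lie head to head with starts 750 bases apart and overlap, so their reads are likewise uncertain without a known strand setting. RSAD2 had 16.6, 15.1 and 18.0 CPM in acute and 2.53, 1.69 and 2.34 in recovery, with 12.1% of the rise left, and the repeat libraries reached 30.1 to 31.2. CMPK2 had 20.7 to 21.7 CPM in acute and 0.866 to 1.29 in recovery, a fall of 4.28 with 4.0% left. The recovery and acute values of every gene named in these paragraphs did not overlap. For most of them this was a condition of being named, and it held for 50.5% of all genes, so it is not a result.

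**Figure D3:**
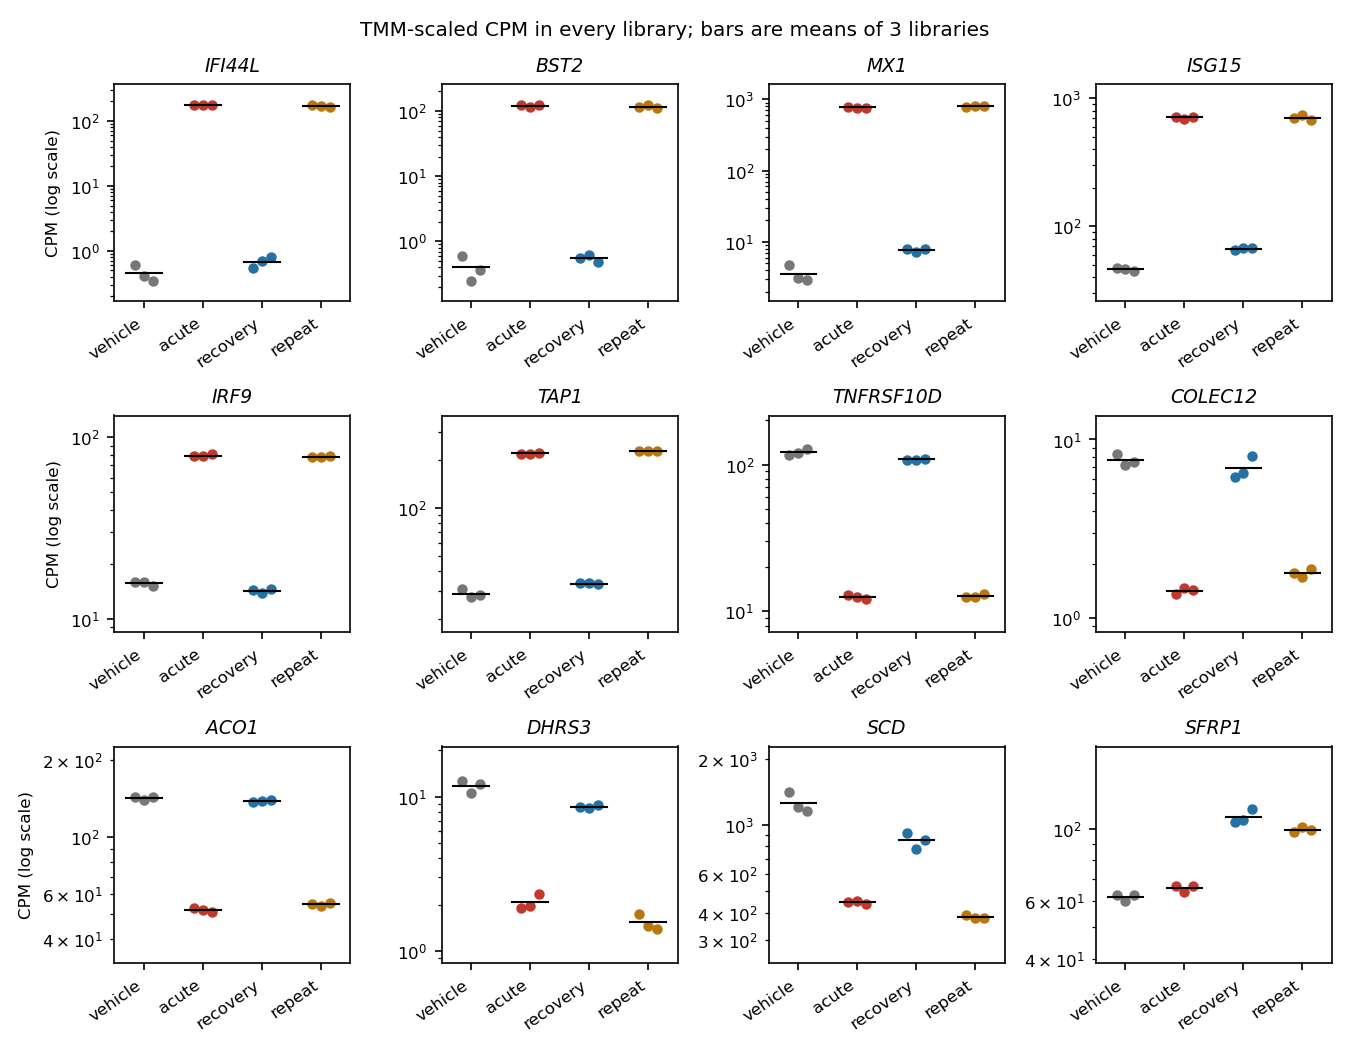
TMM-scaled CPM on log axes that differ between panels, for 12 genes in the 3 libraries of each group; points are libraries and bars are group means. IFI44L, BST2, MX1, ISG15, IRF9 and TAP1 are high in acute and repeat and low in vehicle and recovery, TNFRSF10D, COLEC12, ACO1, DHRS3 and SCD show the reverse, and SFRP1 is high in recovery and repeat only.

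ISG15 is a ubiquitin-like protein that UBA7, UBE2L6 and HERC5 attach to target proteins and USP18 removes. All 6 genes of the ISG15 system were called lower in recovery, with a median of -2.76. ISG15 itself (ENSG00000187608.10, chromosome 1, 1001138 to 1014540) had 716, 693 and 715 CPM in acute, 65.2, 67.6 and 68.3 in recovery and 45.1 to 47.6 in vehicle. The fall was -3.4 ± 0.0305 (adjusted p = 5.19e-28), and every recovery value stayed above every vehicle value, an excess of 0.53 (adjusted p = 1.4e-09) that was 3.2% of the rise. USP18, which also binds IFNAR2 and blocks signalling, went from 127, 126 and 126 to 2.31, 2.3 and 2.89 CPM, a fall of 5.65 that left 0.848% of the rise.

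Signal transduction genes split by whether the pulse had moved them. Of 18 receptors, JAK-STAT members and interferon regulatory factors tested, 12 were called lower and 1 higher, with a median of only -0.17. IRF9, the DNA-binding partner of the phosphorylated STAT proteins, went from 78.9, 78.7 and 80.5 CPM to 14.5, 13.9 and 14.6, below the vehicle values of 15.2 to 16.1, and the difference from vehicle was not called (adjusted p = 0.0587). Its fall was -2.47 ± 0.0369. IRF7, which amplifies interferon production, went from between 70.8 and 76.2 down to between 7.15 and 7.75 CPM and was not called against vehicle. BATF2 fell by 4.84. JAK1 was the member called in the other direction, at 205 to 211 CPM in acute and 254 to 266 in recovery, a rise of 0.32.

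The feedback inhibitors did not move as a group: of 13 tested, 3 were called lower and 7 higher, with a median of 0.1. The 3 that fell were USP18, SOCS1, which binds JAK kinases and fell by 1.01, and TRIM21, a ubiquitin ligase and cytosolic antibody receptor, which fell by 2.35. PTPN11, encoding the phosphatase SHP2, rose most, from between 286 and 291 to between 389 and 397 CPM, a difference of 0.45. On log2(TPM + 1), 2 genes of this list were called higher.

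Sensors of foreign nucleic acid fell with few exceptions, 19 of 21 called lower and 1 higher, at a median of -0.77. RIGI, the RNA helicase that detects viral RNA ends, had 285, 274 and 291 CPM in acute and 49.8, 45.7 and 51.5 in recovery, all above the vehicle range of 31.3 to 34.7. The fall was -2.53 ± 0.045 (adjusted p = 2.71e-14) and 6.6% of the rise was left. IFIH1, encoding the related sensor MDA5, fell by 3.36 and DHX58, their regulator LGP2, by 2.33, while MAVS, the adaptor shared by RIGI and IFIH1, rose by 0.35. SAMHD1, which depletes deoxynucleotides, fell by 2.68 to between 58.3 and 63.1 CPM, overlapping the vehicle values of 58.4 to 62.2.

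Antigen presentation by MHC class I fell as a block, with 21 of 22 genes called lower, none higher and a median of -1.08. In recovery 8 of the 22 were still called above vehicle, and 5.55% was the median share left over the 17 members that the pulse changed at least 1.5-fold. TAP1, a subunit of the peptide transporter, had 219, 218 and 222 CPM in acute and 33.4, 33.4 and 32.9 in recovery against 27.5 to 30.6 in vehicle, a fall of 2.72 with an excess of 0.2 over vehicle (adjusted p = 0.000281). PSMB9, an immunoproteasome subunit, fell by 2.44 and kept 5.67% of its rise. HLA-F, a non-classical class I chain, went from 21.6, 20.5 and 23.5 to 4.48, 5.48 and 4.74 CPM with 2.31 to 3.0 in vehicle, and kept 11.3%. HLA genes share sequence with one another, so reads may be split between them.

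Smaller gene families were counted likewise. Of 14 PARP family genes, 11 were called lower and 1 higher (median -0.36). PARP9, its partner DTX3L, PARP10 and PARP14 fell by 3.85, 3.15, 3.2 and 3.44, and none of these was called against vehicle. All 4 apolipoprotein L genes tested fell (median -1.61). Of 8 genes of PML nuclear bodies, 4 were called lower (PML, SP100, SP110 and SP140L) and 3 higher, ATRX among them at 0.24. Of 5 guanylate-binding proteins tested, GTPases that act on pathogen membranes, 3 were called lower, GBP1 by 2.01 and GBP3 by 1.32 among them. GBP4 did not reset: its recovery values of 7.71, 7.1 and 9.39 CPM overlapped the acute values of 7.26, 6.71 and 7.27, with 3.78 to 4.61 in vehicle and 9.62 to 10.8 in repeat. The difference from acute was 0.19 ± 0.0913 (adjusted p = 0.105) and that from vehicle 0.91 (adjusted p = 4.54e-07).

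Inflammatory cytokines and NF-kB targets were called lower in 19 of 23 cases and higher in none (median -0.61). TNFAIP3, encoding the inhibitor A20, fell by 1.44 and CXCL8, encoding interleukin-8, by 1.31. CXCL10 and CXCL11, classical interferon-induced chemokines, were near the floor, with at most 0.249 and 0.745 CPM in any acute library, and no fold is given for them. Of 25 cell death genes, 16 were called lower and 3 higher (median -0.23). MLKL, the executioner of necroptosis, fell by 1.52 and TNFSF10, the ligand TRAIL, by 2.0.

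Some genes raised by the pulse ended below vehicle. Of 12 complement genes, 8 were called lower than acute and 1 higher (median -0.66), and the median share left over the 4 members changed at least 1.5-fold by the pulse was -7.78%. C1R, a protease of the first complement component (ENSG00000159403.18, chromosome 12, 7080214 to 7092540), had 64.3, 56.5 and 60.7 CPM in vehicle, 150, 152 and 156 in acute and 47.0, 43.9 and 45.2 in recovery. Every recovery value lay below every vehicle value, a difference of -0.42 (adjusted p = 7.61e-08). The repeat libraries stood at 137 to 139 CPM, below acute by 0.14 (adjusted p = 0.0126, edgeR's quasi-likelihood test). Its neighbour and partner protease C1S followed, at -0.4 against vehicle (adjusted p = 1.92e-06). COL4A1, a basement membrane collagen, was raised from 350 to 370 CPM in vehicle to 457 to 480 in acute and stood at 290 to 295 in recovery. Its repeat values of 375 to 391 CPM were also below acute, by 0.28 (adjusted p = 1.3e-08, edgeR's quasi-likelihood test), so both late harvests were lower than acute. ICAM1, a leukocyte adhesion molecule, stood at 20.9 to 22.2 CPM in recovery, with 28.1 to 30.2 in vehicle and 32.2 to 33.7 in acute. Of the 8 genes named for this pattern, C1R and COL4A1 kept the call against vehicle under each of the 16 alternative settings, and C1S, CLSTN3, ICAM1, IL32, LTB4R and RASGRP3 did not. Vehicle cells were labelled as 24 h, so here time in culture and the after-effect of the pulse cannot be told apart.

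Genes lowered by the pulse rose again by smaller steps. TNFRSF10D, encoding a decoy receptor for TRAIL without a working death domain, rose most of the genes named by rule. It had 12.9, 12.5 and 12.2 CPM in acute and 107, 108 and 110 in recovery, with 117, 119 and 128 in vehicle and 12.5 to 13.1 in repeat. The difference was 3.1 ± 0.043 (adjusted p = 5.23e-30), and recovery remained 0.17 below vehicle (adjusted p = 0.000449), with 12.5% of the fall left. COLEC12, a scavenger receptor of endothelial and stromal cells, went from 1.37, 1.47 and 1.44 CPM to 6.19, 6.52 and 8.06, a rise of 2.28 that overlapped the vehicle values of 7.24 to 8.3. ACO1, a cytosolic aconitase that doubles as an iron-regulated RNA-binding protein, went from 52.9, 52.2 and 51.0 to 137, 138 and 140 CPM, a rise of 1.41 ± 0.0259 (adjusted p = 3.18e-26) that was not called against vehicle. DHRS3, a retinaldehyde reductase, went from 1.89, 1.97 and 2.35 to 8.56, 8.38 and 8.88 CPM and stayed under the vehicle range of 10.6 to 12.6, with 33.1% of the fall left. The calls of TNFRSF10D and DHRS3 against vehicle were lost on both TPM scales and with the gene length offset. SLC39A10, a zinc importer, rose by 1.25, MTURN by 1.67 and FAM172A by 1.09, and none was called against vehicle. CASTOR2 and CASTOR3P rose by 1.34 and 1.09, but they are near-identical copies whose reads may be exchanged.

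Lipid synthesis genes made up many of the incomplete returns. Of 27 genes of cholesterol synthesis and uptake, 21 were called higher in recovery than acute and 1, STARD4, lower (median 0.3), while 23 had been lowered by the pulse and 16 were still called lower than vehicle. Of 16 fatty acid synthesis genes, 11 were called higher and 2 lower (median 0.24), and 10 were still called lower than vehicle. Over the members changed at least 1.5-fold by the pulse, 7 in each list, the median shares left were 42.4% and 44.6%. SCD, which desaturates stearate and is among the most abundant of these transcripts (ENSG00000099194.6, chromosome 10, 100347233 to 100364826), had 1418, 1210 and 1161 CPM in vehicle, 448, 451 and 436 in acute and 921, 781 and 853 in recovery. Recovery lay between the groups without overlap, 0.94 ± 0.081 above acute (adjusted p = 1.67e-05) and 0.57 below vehicle (adjusted p = 0.00336), and the repeat libraries fell to 378 to 391. SREBF1, the transcription factor of the lipogenic programme, went from 63.3, 61.9 and 63.5 to 113, 101 and 104 CPM with 139 to 154 in vehicle, and 50.9% of its fall was left. INSIG1, which retains SREBP factors in the endoplasmic reticulum, had 45.2% of its fall left and the desaturase FADS2 44.6%. For these shares too, time in culture cannot be told apart from the after-effect of the pulse. The list of cholesterol export and LXR genes, 7 of them tested, had 3 called higher and 1 lower (median 0.07), with ABCA1, the cholesterol exporter, at 52.0% of its fall left. The calls of SCD (adjusted p = 0.068) and FADS2 (adjusted p = 0.0568) against vehicle were lost when only these groups were fitted, that of SREBF1 was kept under each of the 16 settings, and on log2(TPM + 1) the fatty acid list had 7 genes called higher than acute.

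Cell division transcripts shifted together by small amounts. Of 32 G2/M and mitosis genes, 31 were called higher in recovery than in acute, none lower, with a median of 0.25 and a range from 0.03 to 0.42. The pulse had lowered 30 of them, and none was called in recovery against vehicle. TOP2A, a topoisomerase of dividing cells, had 471, 479 and 453 CPM in acute and 629, 636 and 618 in recovery, in the vehicle range of 614 to 628 or just above it. The rise was 0.42 ± 0.0217 (adjusted p = 2.23e-15). KIF20A, a mitotic kinesin, rose by 0.38, the phosphatase CDC25B by 0.42 and CENPA, the centromeric histone, by 0.39. Of 30 G1/S and DNA replication genes, 11 were called higher and 7 lower (median 0.03), beside 20.4% and 20.7% of all genes. CCND1, encoding cyclin D1, fell by 0.47 and kept 34.2% of its rise.

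Many late cell cycle promoters carry the cell cycle genes homology region, TTTGAA. It was found on either strand in 55.6% of 36 windows of the G2/M list (26 of 32 genes had a window), in 10.7% of 15898 windows of all protein-coding genes tested and in 15.2% of all windows in the table. PLK1, a mitotic kinase, and CDC20, which activates the anaphase-promoting complex, are shown as examples with a match, chosen after their values were seen. The corresponding 100-base stretches of KIF20A, CCNB1 and TOP2A held 0 matches. The mean CPM of PLK1 and CDC20 was 273 and 231 in acute and 344 and 266 in recovery, rises of 0.33 and 0.21.
PLK1, chr16:23678789-23678888, plus strand: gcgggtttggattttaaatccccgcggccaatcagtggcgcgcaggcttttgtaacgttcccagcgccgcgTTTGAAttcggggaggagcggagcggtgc
CDC20, chr1:43358881-43358980, plus strand: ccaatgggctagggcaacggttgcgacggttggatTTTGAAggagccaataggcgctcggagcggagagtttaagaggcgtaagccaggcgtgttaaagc

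Mitochondrial and ribosomal transcripts were also higher in recovery. Of 13 mitochondrially encoded mRNAs, 9 were called higher and none lower (median 0.16). MT-CO3, a subunit of cytochrome c oxidase, went from 2825, 2930 and 2888 to 4153, 4193 and 4141 CPM, a rise of 0.53 ± 0.0215 (adjusted p = 1.09e-17), and was not called against vehicle. Counts from mitochondrial genes made up 4.7% ± 0.15 of the acute and 5.64% ± 0.059 of the recovery libraries (SD, n = 3 each), without overlap, and the exact two-sided permutation p of 0.1 is the smallest that 3 against 3 allows. Of 35 cytosolic ribosomal protein genes, 25 were called higher and none lower (median 0.1), with RPS3A highest at 0.32, and 15 were called higher on log2(TPM + 1). Of 43 nuclear-encoded respiratory chain genes, 12 were called higher and 4 lower (median 0.04), beside 20.4% and 20.7% of all genes, so no trait of this list is read from them.

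Matrix and growth factor genes moved both ways. Of 34 matrix and fibroblast genes, 16 were called lower and 10 higher than acute (median -0.02), beside 20.7% and 20.4% of all genes. In recovery 19 were called below vehicle, against 2.91% of all genes. TNC, encoding tenascin-C, fell from between 303 and 326 to between 187 and 195 CPM, and FAP, a serine protease of activated fibroblasts, rose by 0.47. Of 25 TGF-beta and YAP targets, 14 were called lower and 5 higher (median -0.2), including ANKRD1, a nuclear repeat protein, at -1.8, and INHBA, an activin subunit, at -1.09. Of 20 immediate early and ERK feedback genes, 15 were called lower and 1 higher (median -0.26), with DUSP1, a MAP kinase phosphatase, falling by 0.71 and SPRY4 by 0.68.

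ITGA2, the collagen-binding integrin subunit, in none of the lists above, was named by its residue after the rise. It had 55.8, 56.4 and 61 CPM in vehicle, 146, 145 and 146 in acute, 102, 96.5 and 116 in recovery and 178 to 200 in repeat. Recovery was -0.47 ± 0.0716 from acute (adjusted p = 0.000608) and 0.86 above vehicle (adjusted p = 0.000212), with 49.8% of the rise left.

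A few genes differed more between recovery and acute than between acute and vehicle. SFRP1, a secreted inhibitor of Wnt signalling, was the only gene of at least 5 CPM that was called and at least 1.5-fold different from acute while its acute level stayed within 1.2-fold of vehicle. It had 62.5, 60.2 and 62.8 CPM in vehicle, 66.7, 64 and 66.6 in acute and 105, 106 and 115 in recovery, a rise of 0.72 ± 0.0311 (adjusted p = 4.21e-17). The repeat libraries were also high, at 97.8, 101 and 99.1. Recovery and repeat cells shared both a later harvest and an earlier pulse. Time in culture and the after-effect of the pulse therefore cannot be told apart, here or for the genes that follow. POSTN, encoding periostin, was lower than acute in both late harvests, at 63.4, 63.6 and 64.5 CPM in acute, 44.3, 40.7 and 43.7 in recovery and 42.5 to 45.7 in repeat. Its fall of 0.57 in recovery was under the 1.5-fold limit that SFRP1 met. ACTN2, a sarcomeric actinin, was already 0.39 above vehicle in acute (adjusted p = 0.032) and rose from between 1.82 and 1.99 CPM to between 2.53 and 3.43, with 3.35 to 3.92 in repeat. NPPB, the natriuretic peptide BNP, rested on 23 to 29 counts in acute and 6 to 9 in recovery.

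Long non-coding RNAs followed both directions at low levels. LINC02574 fell by 4.94 from 2.65 to 3.21 CPM, BISPR by 3.82, IRF1-AS1 by 1.48, PSMB8-AS1 by 1.44 and HCP5 by 1.26. LINC00641 rose by 1.57, from between 2.26 and 3.05 to between 7.63 and 7.92 CPM, MIR600HG by 1.55, ZNF710-AS1 by 1.45, LINC01963 by 1.19 and ARNT2-DT by 1.01. Of these 10, BISPR was the one called against vehicle, 1.25 higher (adjusted p = 0.0264). The antisense and divergent members overlap or abut coding genes and share the uncertainty of strand.

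**Figure D4:**
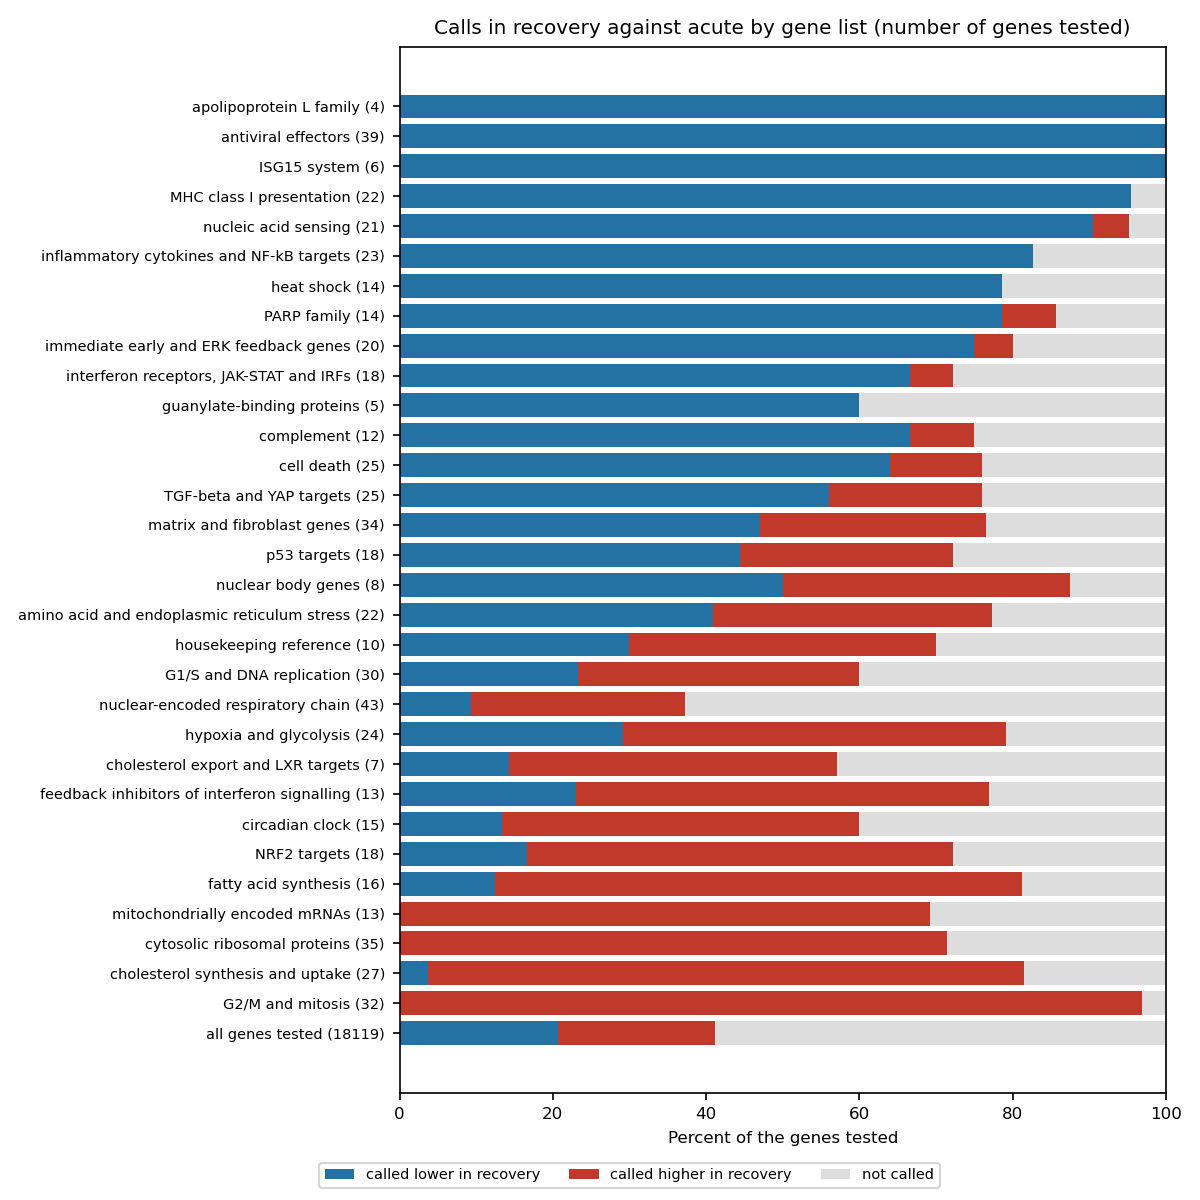
For each gene list, bars give the percent of its tested genes called lower (blue), called higher (red) or not called (grey) in recovery against acute, with the number tested in brackets and all 18119 genes in the bottom bar. Antiviral, ISG15 and apolipoprotein L genes are all called lower, and 31 of 32 G2/M genes are called higher.

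Of 10 housekeeping reference genes, 3 were called lower, TFRC by 0.35 and TBP by 0.19 among them, and 4 higher, HPRT1 by 0.26, YWHAZ by 0.14, SDHA by 0.1 and GAPDH by 0.09, while ACTB, GUSB and PPIA were not called. Their median was 0.03, and 2 were called higher on log2(TPM + 1).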

How the data were processed

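Poly(A) RNA from 12 AC16 cultures was sequenced as single-end 75 bp reads. Per the submitters' processing notes the authors aligned to GRCh38.p13 with STAR 2.7.11a after trimming (cutadapt 4.3 through Trim Galore 0.6.10), counted with featureCounts 2.0.3 and also ran edgeR and Picard 2.27.5, while the series text names DESeq2. Whether counting used strand is not given in the sources used here, and the labels differ on the medium and the harvest day. The deposited gene table holds estimated counts (25.49% of nonzero values not whole), which were rounded to whole numbers, and the deposited TPM table holds the authors' values scaled by gene length, used in alternatives. TPM implied gene lengths that varied between libraries (median coefficient of variation 4.47% over 9689 genes). Gene symbols and positions come from GENCODE 44, matched for 60463 of 60649 IDs.

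Counts were tested with edgeR 4.0.16 (TMM scaling, low-count filter by group, robust quasi-likelihood test, all 12 libraries in 1 fit, Benjamini-Hochberg adjustment over 18119 genes) in R 4.3.3, with limma 3.58.1, DESeq2 1.42.0, Python 3.11.15, pandas 2.3.3, numpy 2.4.6, scipy 1.17.1 and matplotlib 3.10.9. The common biological coefficient of variation was 2.67%, and replicates varied by 1.78 to 2.98 times Poisson noise. The scripts were tested on simulated data. Members and gene lists were chosen with earlier results of these data known. Named genes were the 15 largest falls and rises with at least 5 CPM and no overlap, the 4 largest changes and up to 3 opposed calls of each list, the 10 largest residues and the 8 largest passes beyond vehicle each way, genes changed only late, and 5 long non-coding RNAs each way with at least 1 CPM. Promoter windows came from RefSeq, and classes with windows for under 80% of genes were left out. Some genes are not reported here. Alternatives changed the scaling, filter, tool, unit, block and libraries.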

Additional observations from a re-analysis of the deposited data

How the results depend on the processing

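Testing against a 1.5-fold change with glmTreat called 382 genes in recovery against acute. Depth was not varied. Upper quartile and RLE scaling, DESeq2, limma-voom and a fit of only the groups compared kept the counts of recovery against acute within 1.5 times. The TPM settings change unit, tool and scaling together, and the length offset keeps edgeR. On log2(TPM + 1), log2(TPM + 0.1) and with a gene length offset, recovery against acute called 3836, 3843 and 3913 genes (lower 2322, 2323 and 2045, higher 1514, 1520 and 1868), acute against vehicle 4344, 4329 and 4417, and recovery against vehicle 118, 125 and 178. Those settings left 36, 38 and 41 raised and 8, 9 and 13 lowered genes of at least 5 CPM still called against vehicle. On log2(TPM + 1), 172 genes were at least 2-fold lower and 14 higher, 182 raised and 25 lowered genes were called back, the 5 CPM list held 23 lowered genes with 23 called back, and the lists set by repeat had 176 raised and 30 lowered genes called back. On log2(TPM + 0.1), 67 genes were at least 2-fold higher, and 80 lowered genes and 77 of the list set by repeat were called back. Without a filter 202 genes were at least 2-fold higher. The cause was not tested.

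Leaving out 1 library gave 6619 to 6810 genes for recovery against acute (lower 3325 to 3433, higher 3290 to 3377, at least 2-fold lower 315 to 343, higher 113 to 148) and 7020 to 7356 for acute against vehicle. Recovery against vehicle gave 624 to 942, with 707 without recovery replicate 2, 716 without recovery replicate 3 and 624 without vehicle replicate 1. Called back were 293 to 319 raised and 128 to 147 lowered genes, at 5 CPM 178 to 184 of 178 to 184 and 42 to 51 of 42 to 51, still called 61 to 74 and 17 to 27, and by the repeat lists 308 to 327 and 125 to 149. Replicate numbers did not pair the samples (correlations of -0.0109, -0.0653 and -0.0224), and with a replicate block 7494 genes were called (3709 higher, 3785 lower).

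Of 226 named genes, 182 kept their side of the threshold for recovery against acute under each setting, and 4 reversed with TPM + 1, TPM + 0.1 or the length offset, among them DES (0.01 at TPM + 0.1 and 0.02 with the offset), GFRA1 (-0.15, -0.16 and -0.13) and SMAD6 (-0.01 and -0.02). Against vehicle CASTOR2 reversed (0.02, 0.02 and 0.03).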

Other observations

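The lists not described above are given as counts, beside 20.7% of all genes called lower and 20.4% higher and 49.7% of protein-coding genes called either way. Lists called in both directions, such as the clock, p53 and NRF2 lists, are a description, as 7 of 10 housekeeping genes were called too. Heat shock genes were called lower in 11 of 14 cases and higher in none (median -0.14), with the cochaperone DNAJA1 at 471 to 495 CPM in acute and 344 to 352 in recovery. Of 22 genes of amino acid and endoplasmic reticulum stress, 9 were called lower and 8 higher (median -0.05): HSPA5, the main chaperone of that compartment, fell by 0.34, and SLC7A11, the cystine importer, rose by 0.75. Of 18 p53 targets, 8 were lower and 5 higher (median -0.07), with PMAIP1, a BH3-only protein, falling by 0.95 and ZMAT3, an RNA-binding protein, rising by 0.95. Of 24 genes of hypoxia and glycolysis, 7 were lower and 12 higher (median 0.08), HK2, a hexokinase, falling by 0.66 and NDRG1 rising by 0.51. Of 18 NRF2 targets, 3 were lower and 10 higher (median 0.08). Of 15 clock genes, 2 were lower and 7 higher (median 0.07), among them PER3 and NR1D2 at 0.41 and 0.42, and none of the 7 was called higher on log2(TPM + 1). The marker lists gave 2 lower and 2 higher of 5 cardiomyocyte, 1 and 5 of 11 fibroblast, 1 and 1 of 5 endothelial, 5 and 2 of 8 smooth muscle and 1 and 0 of 4 immune genes tested.

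Beside ITGA2, 7 raised genes kept at least 30% of their rise. They were chosen after their values were seen. NT5E, encoding the ectonucleotidase CD73, had a mean of 126 CPM in vehicle, 287 in acute, 187 in recovery and 340 in repeat. PODXL, a sialomucin, had 36.5, 78.0, 54.3 and 95.9 CPM in the same order, LAMB3, a laminin chain, 34.4, 74.1, 48.2 and 87.5, and G0S2, an inhibitor of lipolysis, 42.2, 89.8, 65.5 and 121. LYPD1 had 5.49, 11.3, 8.94 and 14.1, MYEOV 3.79, 8.45, 5.6 and 9.67, and KCNQ5, a potassium channel, 9.71, 21.7, 13.1 and 23.5. All 7 were called above vehicle in recovery, and each had a repeat mean above its acute mean, a difference that was not called for MYEOV (adjusted p = 0.263, edgeR's quasi-likelihood test) or KCNQ5 (adjusted p = 0.157). Among the 25 lowered genes with at least 30% left were CDKN2B, an inhibitor of cyclin-dependent kinases, with means of 57.5, 24.2, 42.8 and 21.6 CPM, the receptor kinase ERBB3 with 23.3, 11, 17.6 and 9.29, and KLF9, a transcription factor, with 15.3, 6.6, 11.5 and 6.18.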
